A study of Mus musculus with 8 samples.

Results

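The 10 genes described here are the apolipoprotein genes Apoa1, Apoa2, Apoa4, Apoa5, Apob, Apoc1, Apoc3, Apoe, Apoh and Apom, out of 19938 genes with a probe of their own on the array. Each was represented by the array probe that the annotation assigns to that symbol alone, and all 10 lay above the filter on low values that left 11963 genes for testing. Expression was measured in 4 hepatocellular carcinomas and in the adjacent normal liver of the same 4 mice, named M24, M48, M50 and M60, with 1 array per sample. The mice were C57BL/6J males on a normal diet. At 2 to 3 months old each received a vector based on adeno-associated virus (AAV), and tissue was taken 18 months after that injection. The labels do not say what the vector carried, both tissues come from injected animals, and each tumor is 1 dissected piece, so the comparison sets tumor against vector-exposed liver of the same mouse. The mice are separate animals, and each comparison rests on 4 pairs.

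Apolipoproteins are the protein parts of lipoproteins, the particles that carry cholesterol and triglyceride through the blood. Apob forms the backbone of very low density and low density lipoproteins, Apoa1 and Apoa2 are the main proteins of high density lipoprotein (HDL), and the smaller exchangeable members move between particles and control the lipase and the receptors that clear them. The hepatocyte is the main source of most of them, and in the mouse the intestine is a further source of Apoa1, Apoa4 and Apob.

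Levels are the deposited log2 expression values. A difference is the tumor value minus the adjacent value on the log2 scale, averaged over n = 4 mice. Its standard error (SE) and Benjamini-Hochberg adjusted p come from a paired limma fit across all tested genes. That fit draws the variance of each gene toward that of other genes, so SE and p do not measure the spread of the 4 pairs alone. The verbs rose and fell are kept for an adjusted p under 0.05. Where 4 values are given for a tissue, they are those of M24, M48, M50 and M60, in that order. Levels of different genes come from different probes and are not set against each other. In bulk tissue, fewer cells of a type and less RNA per cell cannot be told apart.

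The apolipoprotein genes did not move as a group. Apoa4, Apom and Apoa1 rose, Apoa5 and Apoa2 fell, and Apob, Apoc1, Apoc3, Apoe and Apoh did not pass the test. In all, 3 of the 10 were called higher, against 16.3% of all tested genes, and 2 were called lower, against 15.7%, so that 5 of 10 were called in either direction against 31.9%. Without M24, M48 or M60 the count of higher members was 2, and without any one mouse the count of lower members was 1, because the calls of Apoa1 and Apoa2 were lost. The median difference of the 10 members was -0.09, beside 0.0008 over all tested genes, and the median absolute difference was 0.319, beside 0.216. Tumor and adjacent values did not overlap for 6 members, against 30.5% of tested genes, and 8 members had the same sign in all 4 mice, against 49.9%.

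**Figure D1:**
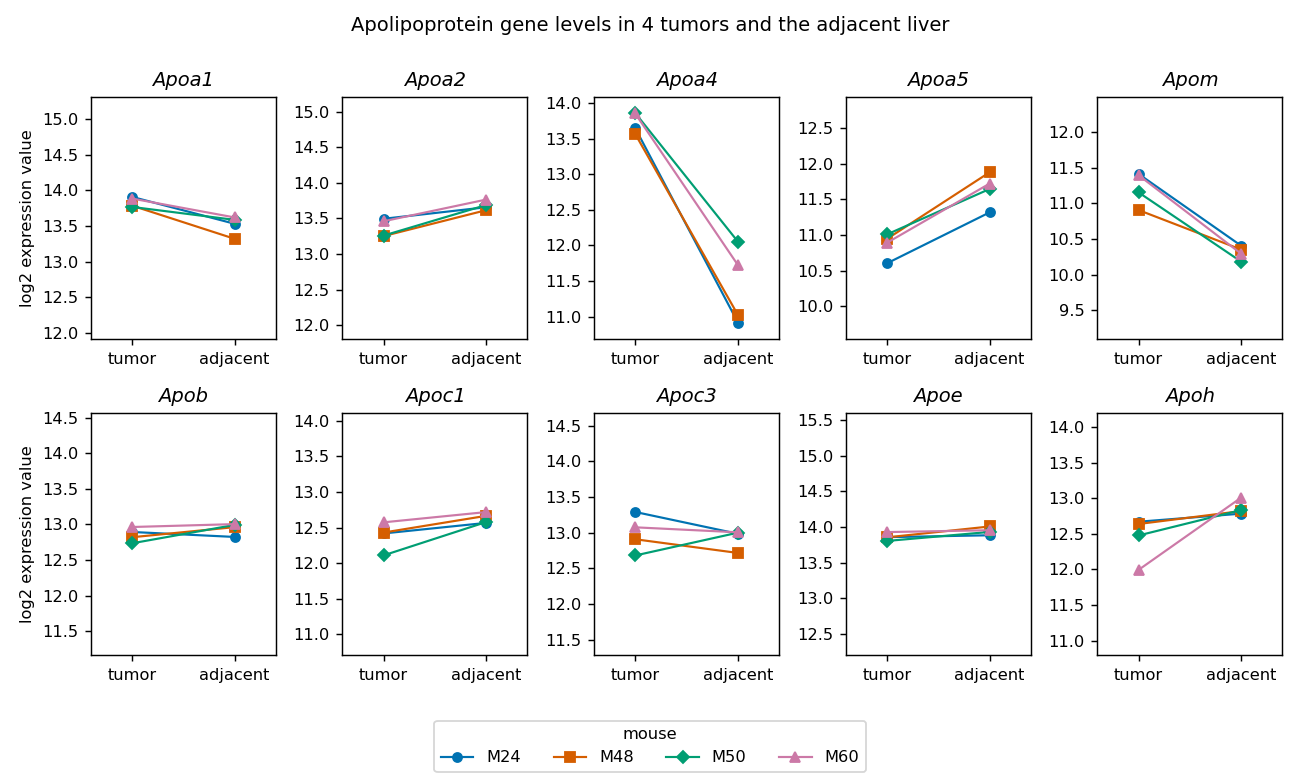
Log2 expression value (vertical axis, each panel spanning the same height) of each of the 10 apolipoprotein genes in tumor (left) and adjacent liver (right), with 1 line per mouse. Apoa4 lies between 13.57 and 13.86 in the tumors and between 10.92 and 12.05 in the adjacent liver, while the lines of Apoe and Apob are nearly flat.

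**Figure D2:**
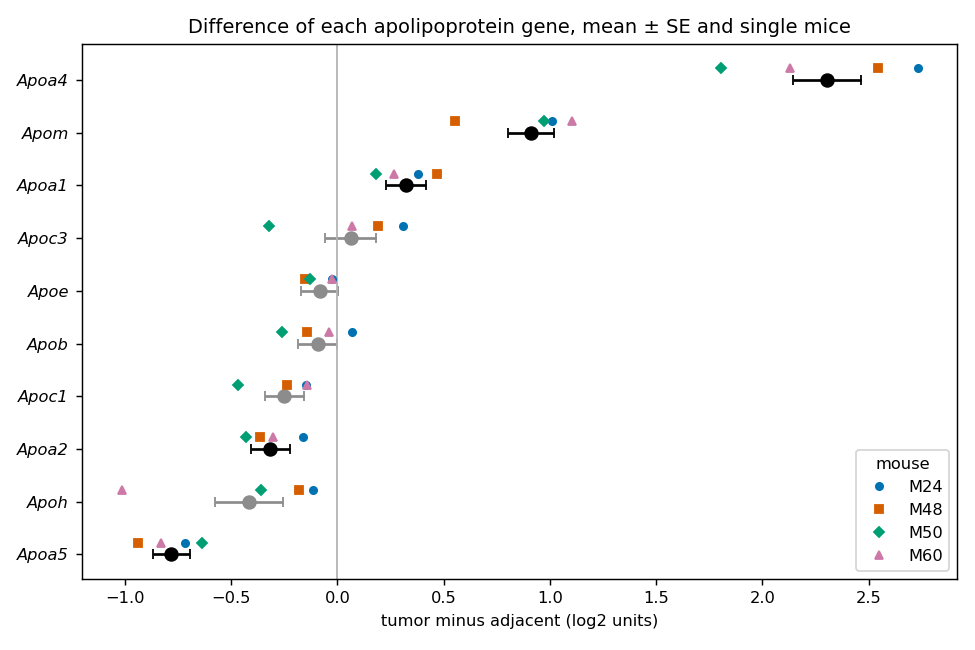
Tumor minus adjacent difference in log2 units for each gene. The mean and its SE from the limma fit are a large point (black where the adjusted p was under 0.05, grey otherwise). The 4 mice are small symbols above it. Apoa4 stands at 2.30 and Apom at 0.91, and Apoa5 stands at -0.78.

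The samples had the high hepatocyte transcripts of liver. Albumin (Alb) lay between 13.83 and 13.97 in tumors and between 13.63 and 13.90 in adjacent liver, and transthyretin (Ttr) differed by -0.15 (adjusted p = 0.259). Of 22 tested genes in a list of hepatocyte products, mostly plasma proteins, 0 rose and 3 fell by limma, with 7 unadjusted p-values under 0.05. The 3 were the cytosolic vitamin E transfer protein Ttpa (-0.73), Itih1 (-0.36) and antithrombin (Serpinc1, -0.30), and each call was lost without at least 1 mouse. Over all tested genes 1945 were called higher and 1874 lower, and 2389 and 1310 when every array was shifted to the same mean of the hepatocyte product list. That shift added 0.104 to each difference. Among markers of other cell types, 5 of 12 stellate cell genes and 3 of 5 cholangiocyte genes rose and 0 fell. Over all tested genes the share called higher was 16.3% and the share called lower was 15.7%. All adjacent values of the cholangiocyte gene Krt23 lay below the filter of 4.597, so it was tested through its tumor values. The call of Krt19, another of the 3, was lost without M24 or M60. Of 5 lymphocyte genes 0 were called by limma, with 4 unadjusted p-values under 0.05. The part of these markers in the apolipoprotein differences was not tested. The brightest probe of each array stood at 14.37 to 14.49, and differences of Alb and of members near that level may be compressed.

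Apoa4 had the largest change of the 10. It encodes an exchangeable apolipoprotein of chylomicrons and HDL that is made by enterocytes and, in the mouse, also by the liver, where its mRNA is known to rise with fasting and with fat accumulation. Apoa4 had tumor values of 13.65, 13.57, 13.86 and 13.85, against adjacent values of 10.92, 11.02, 12.05 and 11.72. Every tumor lay above every adjacent sample. The difference was 2.30 (SE 0.16, adjusted p = 0.000347), a 4.93-fold rise, with single mice from 1.81 in M50 to 2.73 in M24. It was the rise of rank 100 among all tested genes. The spread was narrower in tumors, at 0.148 (SD, n = 4), than in adjacent liver, at 0.548 (SD, n = 4), a difference that was not tested. The tumor values of Apoa4 lay nearer the brightest probe of each array (14.37 to 14.49), where values may be compressed. The smaller differences of M50 and M60 went with the higher adjacent values of those mice, which enter the differences.

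Apoa4 is also a gene of enterocytes, and markers of that cell type were read beside it. Of the 15 listed, 7 were tested, of which 4 rose and 1 fell, against 16.3% and 15.7% of all tested genes. The intestinal cadherin Cdh17 rose by 4.23, the meprin subunit Mep1b by 2.09, the glucose transporter Slc5a1 by 1.43 and the fatty acid binding protein Fabp2, which liver also expresses, by 0.90, while the peptidase Dpp4 fell by 1.497. All adjacent values of Cdh17 and Mep1b lay below the filter of 4.597, so both were tested through their tumor values and the size of their rise is uncertain. The calls of Mep1b (without M24) and Fabp2 (without M24 or M50) were lost. The other 8 lay below the filter in their mean, among them sucrase-isomaltase (Sis), at 2.67 to 2.86 in tumors and 2.80 to 2.87 in adjacent liver. Villin (Vil1) was at 6.06, 6.14, 3.53 and 6.54 in tumors, against 3.63, 3.43, 3.60 and 3.51 in adjacent liver. The summed linear level of the 15 ranged from 2921 to 3478 in tumors and from 1892 to 2632 in adjacent liver. That sum includes Fabp2 and Dpp4, whose adjacent log2 values were 7.83 to 9.91 and 9.16 to 9.60. The part of the enterocyte markers in the Apoa4 difference was not tested.

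Apoa4 lies on chromosome 9 in a run of 4 apolipoprotein genes, ordered Apoa1, Apoc3, Apoa4 and Apoa5 with no other gene between them in the RefSeq annotation of GRCm38.p6. These neighbours gave the largest contrast among the members. Apoa5, whose protein circulates at low level and promotes the lipolysis of triglyceride, had tumor values of 10.60, 10.94, 11.01 and 10.89, against adjacent values of 11.32, 11.88, 11.65 and 11.72. The tissues did not overlap, and Apoa5 fell by 0.78 (SE 0.0863, adjusted p = 0.00146) to 0.582 of the adjacent level, lower in 4 of 4 mice. The Apoa4 difference exceeded the Apoa5 difference of the same mouse by 2.44 to 3.48.

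Apoa1, the structural protein of HDL and the cofactor of the cholesterol-esterifying enzyme Lcat, had tumor values of 13.91, 13.79, 13.77 and 13.88, against adjacent values of 13.53, 13.32, 13.59 and 13.62. Tumors lay above adjacent liver without overlap by a small margin, and Apoa1 rose by 0.32 (SE 0.0932, adjusted p = 0.0387). Its adjusted p was 0.125 without M24, 0.127 without M48 and 0.129 without M60. Apoc3, an inhibitor of lipoprotein lipase and of particle uptake, had tumor values of 13.29, 12.91, 12.68 and 13.08, against adjacent values of 12.99, 12.72, 13.00 and 13.01. The tissues overlapped, with a higher tumor value in 3 of 4 mice and a difference of 0.06 (SE 0.122, adjusted p = 0.733), which stood at -0.02 without M24. The 2 genes that flank Apoc3 rose, and the call of Apoa1 was the less stable.

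**Figure D3:**
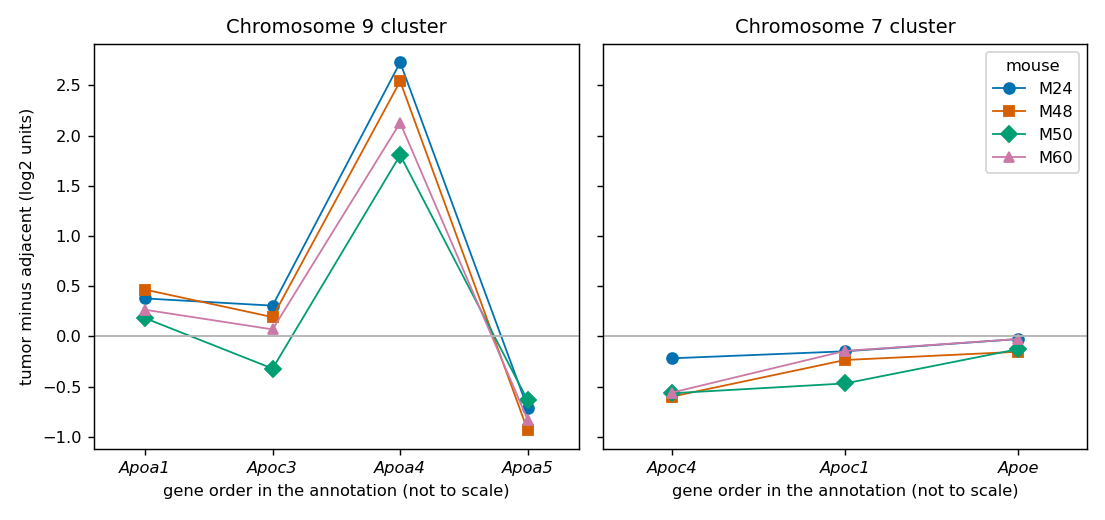
Tumor minus adjacent difference in log2 units of the apolipoprotein genes of the chromosome 9 run (left) and the chromosome 7 run (right), placed in gene order and not to scale, with 1 line per mouse. In every mouse Apoa4 is the highest point and Apoa5 the lowest of the chromosome 9 run, and Apoc4, Apoc1 and Apoe all lie below 0.

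The promoters of 3 genes of this run that were called, and of Apom, which also rose, are shown because the differences of these genes diverge. The windows hold 250 bases before and 50 bases after the start, from RefSeq on GRCm38.p6, and 8 of the 10 members had an entry. Where a member had several entries, only that with the start farthest upstream was used. Each window is written from its own strand. The windows are Apoa1 at chr9:46228380-46228679 (plus strand), Apoa4 at chr9:46240594-46240893 (plus), Apoa5 at chr9:46268358-46268657 (plus) and Apom at chr17:35131752-35132051 (minus). Capitals mark matches on either strand to the motifs named after them.
Apoa1: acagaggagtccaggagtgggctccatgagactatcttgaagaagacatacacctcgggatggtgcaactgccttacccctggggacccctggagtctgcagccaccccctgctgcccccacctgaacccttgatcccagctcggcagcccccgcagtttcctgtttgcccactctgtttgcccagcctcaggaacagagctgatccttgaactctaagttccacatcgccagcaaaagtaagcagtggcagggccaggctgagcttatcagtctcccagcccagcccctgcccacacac
Apoa4: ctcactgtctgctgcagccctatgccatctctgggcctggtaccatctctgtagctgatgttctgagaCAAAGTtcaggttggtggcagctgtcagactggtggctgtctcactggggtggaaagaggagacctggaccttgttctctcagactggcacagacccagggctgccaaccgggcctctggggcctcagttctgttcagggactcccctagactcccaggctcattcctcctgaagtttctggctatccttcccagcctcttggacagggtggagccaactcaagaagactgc
Apoa5: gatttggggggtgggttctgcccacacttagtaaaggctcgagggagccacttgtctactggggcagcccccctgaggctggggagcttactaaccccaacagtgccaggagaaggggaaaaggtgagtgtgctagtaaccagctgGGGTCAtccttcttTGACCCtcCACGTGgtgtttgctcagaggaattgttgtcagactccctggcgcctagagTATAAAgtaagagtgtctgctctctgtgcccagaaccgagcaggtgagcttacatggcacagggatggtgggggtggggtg
Apom: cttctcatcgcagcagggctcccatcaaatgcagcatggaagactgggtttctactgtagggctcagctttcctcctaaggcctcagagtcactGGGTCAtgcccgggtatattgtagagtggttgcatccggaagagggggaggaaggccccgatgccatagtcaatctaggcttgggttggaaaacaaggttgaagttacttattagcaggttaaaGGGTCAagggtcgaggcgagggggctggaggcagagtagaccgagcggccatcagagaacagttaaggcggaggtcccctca

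Motifs searched, with the share of all 32851 promoter windows that hold them, included TATAAA (the TATA box, 13.6%), CAAAGT (the start of the HNF4 consensus, 14.4%), AGGTCA (16.3%) and GGGTCA (13.7%), which are core hexamers bound by nuclear receptors. They also included TGTTTAC (forkhead factors, 3.65%), CACGTG (an E-box, 7.15%) and TGACGT (the cyclic AMP response element core, 7.51%). In the Apoa4 window the only match was CAAAGT, at position -182 from the start. The Apoa5 window had TATAAA at position -31, CACGTG at -82, and GGGTCA at -104 and, on the other strand, at -90. Apom had GGGTCA at -156 and -32, and the Apoa1 window held none of the motifs named here. No match overlapped another in these 4 windows. The matches are a description of the letters and say nothing of binding.

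Apom rose in the tumors as well. It encodes a lipocalin of HDL that carries sphingosine 1-phosphate, a lipid signal, and lies on chromosome 17. Apom had tumor values of 11.41, 10.90, 11.15 and 11.39, against adjacent values of 10.40, 10.35, 10.18 and 10.29. The tissues did not overlap. The difference was 0.91 (SE 0.11, adjusted p = 0.00195), a 1.88-fold rise, from 0.56 in M48 to 1.10 in M60.

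Among 9 tested genes that make, export, sense or break down sphingosine 1-phosphate, 2 rose and 4 fell, with a median difference of 0.02. Over all tested genes 16.3% were called higher and 15.7% lower. The receptor gene S1pr3 had tumor values of 7.09, 6.17, 6.93 and 7.66, against adjacent values of 4.44, 4.88, 4.68 and 4.24, and rose by 2.40 (SE 0.311, adjusted p = 0.00245). The adjacent values of M24 and M60 lay below the filter of 4.597, so the size of that rise is uncertain. The receptor gene S1pr1 fell by 0.88 and the phosphatase Sgpp1 by 0.73, and these 3 calls held without each mouse in turn. The exporter Spns2 (0.34), the kinase Sphk2 (-0.44) and the phosphatase Plpp3 (-0.40) passed too, but each call was lost without at least 1 mouse. S1pr1 is a gene of endothelial cells. In a list of their markers 5 of 10 rose, against 16.3% of all tested genes, and 0 fell. Those that rose were Lyve1 (1.49), Pecam1 (1.02), Kdr (0.64), Cd34 (1.57) and Tek (0.39). The call of Cd34 was lost without M50, and that of Tek without M48, M50 or M60. The summed linear level of that list was 2378 to 3344 in tumors and 1861 to 2387 in adjacent liver, so the ranges overlapped slightly. The brightest probes weigh most in such a sum. The part of endothelial cells in these differences was not tested.

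Apoa2, the second protein of HDL, fell while Apoa1 rose. Apoa2 had tumor values of 13.50, 13.25, 13.26 and 13.46, against adjacent values of 13.66, 13.62, 13.69 and 13.77. The tissues did not overlap, and the difference was -0.32 (SE 0.0909, adjusted p = 0.0387), lower in 4 of 4 mice. The call was lost without any one mouse, with adjusted p-values from 0.064 to 0.148, with quantile normalization (0.0602) and with arrays shifted to the same mean of the hepatocyte product list (0.128). In each mouse the Apoa1 difference was above the Apoa2 difference, by 0.54 to 0.83.

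Partners of HDL were read beside these genes. Of 13 tested, 2 rose, against 16.3% of all tested genes, and 5 fell, against 15.7%, with a median of -0.05. Paraoxonase 1 (Pon1), an HDL-bound esterase, had tumor values of 10.53, 9.44, 8.27 and 9.54, against adjacent values of 12.26, 11.88, 12.23 and 12.26. All tumors were below all adjacent samples, and Pon1 fell by 2.71 (SE 0.321, adjusted p = 0.00182). Lcat, which esterifies HDL cholesterol and is activated by Apoa1, fell by 0.89 (SE 0.102, adjusted p = 0.00163), and Pon3 fell by 0.59. The HDL receptor Scarb1 rose by 0.47, a call lost without M24 or M60. Endothelial lipase (Lipg, -1.03), the Scarb1 adaptor Pdzk1 (-0.48) and the sterol exporter Abcg1 (0.59) passed, and their calls were lost without M50 or M60, and for Lipg and Abcg1 also without M24. The Lipg values of 3 tumors and of the adjacent liver of M48 lay below the filter of 4.597, so the size of its fall is uncertain. The exporter Abca1, which loads Apoa1 with lipid, stood at 0.06 (adjusted p = 0.77), and the transfer protein Pltp at 0.47 (adjusted p = 0.0914).

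Apob did not pass the test. Apob had tumor values of 12.89, 12.82, 12.74 and 12.96, against adjacent values of 12.82, 12.96, 12.99 and 13.00. The ranges overlapped, with a higher tumor value in 1 of 4 mice, and the difference was -0.09 (SE 0.0927, adjusted p = 0.491), which stood at 0.01 with arrays shifted to the mean of the hepatocyte product list. Mttp, the transfer protein that loads Apob with lipid, stood at 0.09 (adjusted p = 0.594).

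Of 22 tested genes of lipoprotein assembly and secretion, 7 rose, against 16.3% of all tested genes, and 4 fell, against 15.7%. The median was 0.15. Apobec1, the enzyme that edits Apob mRNA and so gives the short form of the protein, rose by 0.43 (SE 0.0826, adjusted p = 0.00938), and its cofactor A1cf fell by 0.53 (SE 0.0836, adjusted p = 0.00476). The array does not measure editing. Tm6sf2, which acts in lipid loading, rose by 0.64, Pla2g12b, a secreted phospholipase-like protein needed for lipoprotein release, by 0.58, and the coat protein Sec24d by 0.52. The lipid droplet protein Cidec had tumor values of 7.52, 7.89, 8.97 and 8.11, against adjacent values of 5.36, 6.30, 7.91 and 7.59, and rose by 1.33 (adjusted p = 0.00872). Its tissues overlapped, and the adjusted p was 0.1 with no replicate block. The other calls were Tmem41b (0.34), Sec24c (0.33), Mia2 (-0.44), Aadac (-0.67) and Dgat2 (-0.30), each lost without at least 1 mouse.

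Apoe and Apoc1 lie side by side on chromosome 7, with Apoc4 next to Apoc1. Apoe is the ligand by which remnant particles bind their receptors, and macrophages make it as well as hepatocytes. Apoe had tumor values of 13.86, 13.85, 13.80 and 13.93, against adjacent values of 13.88, 14.01, 13.93 and 13.95. Each tumor was below its adjacent liver, but the ranges overlapped and the difference was -0.08 (SE 0.0871, adjusted p = 0.514), which stood at 0.02 with arrays shifted to the mean of the hepatocyte product list.

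Apoc1, which slows the uptake of remnants, had tumor values of 12.42, 12.43, 12.11 and 12.57, against adjacent values of 12.57, 12.66, 12.58 and 12.72. It was lower in 4 of 4 mice, by 0.25 on average (SE 0.0935), and did not pass at adjusted p = 0.0877. Apoc4, an apolipoprotein gene that is not among the 10 members, fell by 0.49 (SE 0.0944, adjusted p = 0.00992), a call lost without M60 (adjusted p = 0.052). Apoc4 and Apoc2 are overlapped by the gene Gm44805 in the annotation, so the Apoc4 probe may share signal, and Apoc2 was not analysed because its probe carries several symbols.

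Macrophage markers were read beside Apoe and Apoc1. Of 15 tested, 2 rose, against 16.3% of all tested genes, and 3 fell, against 15.7%. Their median difference was 0.30, and 10 unadjusted limma p-values were under 0.05. Gpnmb (1.49) and Cd68 (0.98) rose, while the Kupffer cell genes Marco (-1.29), Timd4 (-0.94) and Clec4f (-0.65) fell. With no replicate block the adjusted p was 0.151 for Marco and 0.262 for Timd4. The call of Cd68 was lost without M48, M50 or M60 and that of Clec4f without M24, M48 or M50. The summed linear level of the list, in which the brightest probes weigh most, was 5187, 11573, 4899 and 5228 in tumors. In adjacent liver it was 6126, 11257, 2995 and 3260. M48 had the highest sum in both tissues. The part of these cells in the Apoe and Apoc1 values was not tested.

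Genes in a list of lipoprotein receptors, their relatives and clearance were called at about the share of all tested genes. Among 11 tested, 2 rose, against 16.3% of all tested genes, and 2 fell, against 15.7%, with a median of 0.01. Lrp1, a hepatic receptor for Apoe-bearing remnants, had tumor values of 10.68, 10.88, 10.19 and 10.49, against adjacent values of 11.43, 11.71, 11.21 and 11.38, and fell by 0.88 (SE 0.0826, adjusted p = 0.000875). Lsr, the lipolysis-stimulated receptor, rose by 0.49 (SE 0.082, adjusted p = 0.00602). The calls of Lrp5 (0.44) and Lrp6 (-0.34) were lost without M50 or M60, and for Lrp5 also without M24. The very low density lipoprotein receptor Vldlr stood at -0.46 (adjusted p = 0.13).

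Apoh, which encodes beta-2-glycoprotein I, a plasma protein that binds phospholipids, had tumor values of 12.67, 12.64, 12.48 and 11.99, against adjacent values of 12.78, 12.82, 12.83 and 13.01. All tumors lay below all adjacent samples, yet the difference of -0.42 (SE 0.159) did not pass at adjusted p = 0.0921. It ranged from -0.11 in M24 to -1.02 in M60. The adjusted p of Apoh stayed between 0.0526 and 0.275 in the 15 other fits.

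Other apolipoprotein genes on the array were lower where they were called. Of 8 tested, 0 rose and 5 fell by limma, beside 15.7% of all tested genes called lower. The median was -0.68, and 5 unadjusted p-values were under 0.05. The 5 were Saa1, Saa2 and Saa4 of the serum amyloid A family, Apol7a and Apoc4. Saa4, a constitutive HDL protein of the serum amyloid A family, had tumor values of 9.80, 10.14, 9.30 and 10.08, against adjacent values of 10.96, 11.003, 11.03 and 11.72. All tumors were lower, and Saa4 fell by 1.35 (SE 0.156, adjusted p = 0.00167). The acute phase genes Saa1 and Saa2, which displace Apoa1 on HDL in inflammation, fell by 1.71 and 1.83, but they are near-identical copies whose probes can share signal. Their adjusted p-values with no replicate block were 0.137 and 0.212, and the call of Saa2 was lost without M24 or M60. Saa2 had tumor values of 7.80, 11.11, 6.89 and 6.53, against adjacent values of 10.54, 11.41, 8.35 and 9.35, so M48 was highest in both tissues. Apol7a fell by 0.88, with an adjusted p = 0.0617 with no replicate block. Apof, an HDL protein, stood at 0.17 (adjusted p = 0.217), Clu at 0.18 (adjusted p = 0.193) and Apon at -0.25 (adjusted p = 0.18).

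Among 11 tested genes of triglyceride lipolysis, the step that Apoa5 promotes and Apoc3 inhibits, 4 rose and 2 fell, with a median of -0.14. Over all tested genes 16.3% were called higher and 15.7% lower. Lipoprotein lipase (Lpl) had tumor values of 9.72, 10.88, 10.19 and 9.72, against adjacent values of 7.60, 9.05, 6.87 and 6.34, and rose by 2.66 (SE 0.279, adjusted p = 0.00121). Gpihbp1, the endothelial protein that anchors this lipase, rose by 0.86 (SE 0.112, adjusted p = 0.00256). Angptl8, whose product inhibits the lipase, rose by 0.98, with an adjusted p = 0.0964 with no replicate block. The convertase Pcsk6 fell by 1.07. The perlecan gene Hspg2 (0.46) and the lipase inhibitor Angptl4 (-0.96) passed, and their calls were lost without M24 or M50, and for Hspg2 also without M60. Over the 7 lists of lipoprotein pathways together, 20 of 100 tested genes rose, against 16.3% of all tested genes, and 34 fell, against 15.7%. The counts were 26 and 26 with arrays shifted to the same mean of the hepatocyte product list. That shift gave 2389 and 1310 over all tested genes.

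**Figure D4:**
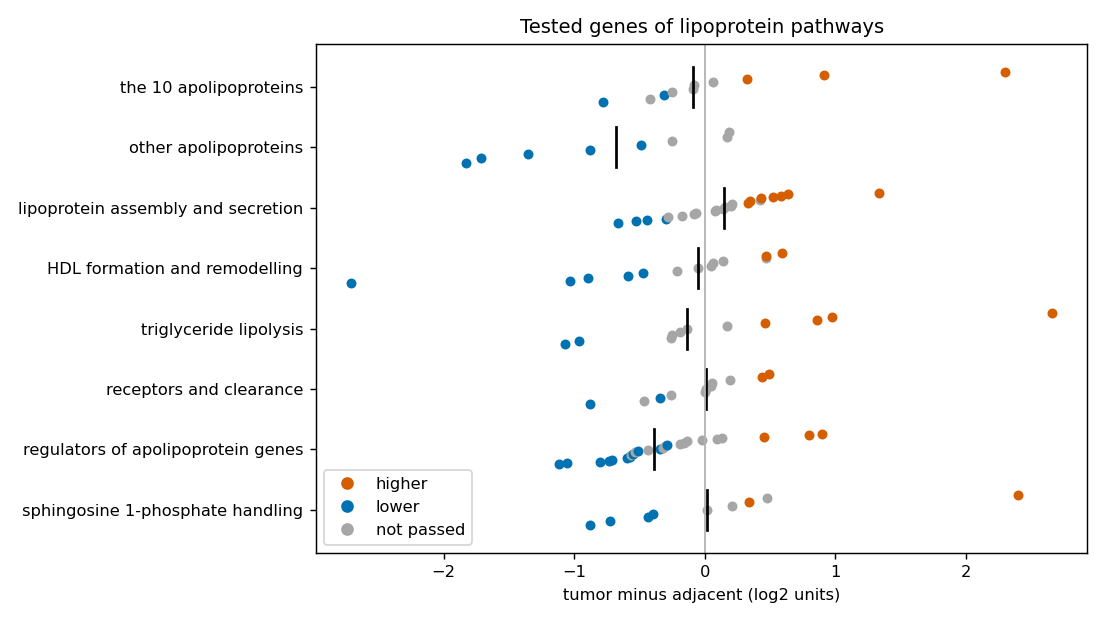
Tumor minus adjacent difference in log2 units of every tested gene in the 10 apolipoproteins and 7 lists of lipoprotein pathways, coloured by its call (orange higher, blue lower, grey not passed), with the list median as a black bar. The medians run from -0.68 for the other apolipoproteins to 0.15 for assembly and secretion, and that of the 10 apolipoproteins is -0.09.

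Transcription factors known to act on apolipoprotein genes were mostly lower where called. Of 26 tested, 3 rose, against 16.3% of all tested genes, and 12 fell, against 15.7%, with a median of -0.39. Of these 15 calls, 5 were lost without at least 1 mouse. Klf15, a factor of fasting metabolism, fell by 1.06 (SE 0.0951, adjusted p = 0.000744), the bile acid receptor Nr1h4 by 1.12 (SE 0.108, adjusted p = 0.000949), the nuclear receptor partner Rxra by 0.73 and Cebpa by 0.57. Foxa3 rose by 0.90 (SE 0.109, adjusted p = 0.002) and Srebf2, the master factor of sterol synthesis and uptake, by 0.80. These 6 calls held without each mouse in turn. Hnf4a, a hepatocyte factor that binds most of these promoters, had tumor values of 10.89, 10.87, 10.86 and 11.06, against adjacent values of 11.10, 11.38, 11.29 and 11.30. The tissues did not overlap, and Hnf4a fell by 0.35 (SE 0.0877, adjusted p = 0.0253), a call lost without any one mouse, with adjusted p-values from 0.0529 to 0.0777. Creb3l3, a liver factor known to drive Apoa4 in the mouse, stood at -0.14 (adjusted p = 0.452). Their relation to the apolipoprotein differences was not tested.

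Apoa4 and Apoa5 had the widest ranges over the 8 arrays, 2.94 and 1.28. The 5 tested genes whose log2 levels followed Apoa4 most closely over the 8 arrays were Nans, Hsd17b13, Dhx32, Dusp16 and Abcd2, with Pearson r from 0.988 to 0.991. Hsd17b13, a lipid droplet protein of hepatocytes, rose by 0.65, and Abcd2, a peroxisomal fatty acid transporter, by 2.46. Those closest to Apoa5 were Dnajb6, Zfp871, Dhx16, Marf1 and Slc22a5, with r from 0.978 to 0.987, and Slc22a5, the carnitine transporter, fell by 1.48. The 8 points share 2 tissues and 4 mice, so a common tissue difference alone gives a high r, and the values are a description.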

How the data were processed

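RNA from snap-frozen tumor and adjacent liver of 4 mice was hybridised to Affymetrix mouse gene arrays, 1 array per sample, per the labels. The authors deposited log2 expression values for 28874 probes, from 1.918 to 14.49 with 0 missing. The normalization is not given in the sources used here, and the submitters' processing notes name MAS5 without its role. Array medians were 4.888 to 5.006, and the number of arrays limits the precision.

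Of 23410 probes with annotation, 21789 carry 1 gene symbol, 1621 several, and 5464 probes have no entry. Each of 19938 genes was represented by 1 probe, that of highest average level (999 genes have several), and the 40% of genes with the lowest means (below 4.597) were left out. limma 3.58.1 in R 4.3.3 (lmFit with mouse as a block, eBayes with a variance trend, two-sided, Benjamini-Hochberg over 11963 genes, threshold 0.05) gave the differences and was tested on simulated data. The mouse numbers pair tissues of the same animal, per the labels. Deviations from the tissue means correlated at 0.0986 to 0.421 within a mouse and at -0.378 to 0.189 between mice.

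The members and gene lists were chosen with earlier results of these data known. Genes named were the 10 members, up to 6 called genes of each list with the smallest p, a set of genes named whatever their values, and the 5 genes most like each of the 2 members with the widest range. Other genes named were chosen after their values were seen. Some genes of that set and a promoter motif that was searched are not reported here. Alternatives were other normalizations, filters, probe rules, variance models, no block, and each mouse left out.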

Additional observations from a re-analysis of the deposited data

Results flagged for a closer look

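In 11 of 168 sets of 4 samples (6.55%) the highest or lowest sample stood apart from the others of its tissue by Dixon's criterion, and chance gives about 1 in 20. Among the members, the adjacent liver of M48 had the lowest Apoc3 value, 12.72, against 12.99 to 13.01 in the other adjacent samples. The same sample had the lowest Pon1 value at 11.88 (others 12.23 to 12.26), the lowest Apol7a value at 6.77 (others 7.99 to 8.07) and the highest Abca1 value at 10.52 (others 9.82 to 9.93). The adjacent liver of M60 had the highest Saa4 value at 11.72 (others 10.96 to 11.03).

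In tumors, M60 had the lowest Pon3 value at 9.56 (others 9.89 to 9.91) and the highest Hnf4a value at 11.06 (others 10.86 to 10.89). The tumor of M24 had the highest Lipg value at 5.05 (others 4.37 to 4.46) and the highest S1pr1 value at 8.63 (others 8.26 to 8.29). The tumor of M50 had the highest values of the collagen genes Col3a1, at 9.64 (others 8.78 to 8.84), and Col1a2, at 9.35 (others 8.26 to 8.35).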

How the results depend on the processing

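Apoa4 (2.16 to 2.47), Apoa5 (-0.83 to -0.68) and Apom (0.85 to 1.03) kept their direction and call in all 15 alternatives. Over the 10 members, 138 values kept direction and side of the threshold, 9 lost the call (Apoa1 and Apoa2) and 3 reversed. With arrays shifted to the same mean of the hepatocyte product list, which adds 0.104, Apob stood at 0.0109, Apoe at 0.0208 and the members' median at 0.02. Apoc3 ranged from -0.0193 (without M24) to 0.19 (without M50). The count of lower members was 1 under that shift and under quantile normalization.

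With 1 mouse left out in turn, members higher numbered 2 to 3 and lower 1 in each case, and their median was -0.12 to -0.05. All genes higher numbered 1238 to 1759 and lower 1071 to 1720, and genes of the 7 pathway lists 12 to 18 higher and 21 to 30 lower, against 20 and 34 with all mice and 26 and 26 with arrays shifted to the hepatocyte product mean. The lowest counts for all genes came without M60, and these fits have fewer samples. With no replicate block 3 members were higher and 2 lower, all genes 1743 and 1799, and the pathway lists 14 and 24. The pairing changed no member's call.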
